A study of Mus musculus with 24 samples.

Results

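The CISH and SOCS genes encode a family of cytokine feedback proteins. Its 8 members, Cish and Socs1 to Socs7, were taken by symbol from the 24046 genes counted in MLL-AF9 leukaemias of mouse bone marrow. The family was chosen because Cish was known to be high in the floxed libraries of 1 set, the MxCre set titled A2, so everything in that contrast is given as a description and carries no test. All 8 members passed the filter on low counts.

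RNA was measured in 24 libraries, in 8 groups of 3. All cells carried the MLL-AF9 fusion oncogene and a Cre recombinase, the controls included, and all came from the marrow of moribund secondary recipients. In the VavCre Arid1b set, Arid1b fl/fl cells (floxed) were compared with Arid1b +/+ cells (control), and in the VavCre Arid2 set Arid2 fl/fl with Arid2 +/+ cells. The Vav promoter drives Cre in blood cells in general. The Mx promoter of the other sets is switched on by interferon, which the recipients were made to produce with high-molecular-weight pIpC, given to control and floxed recipients alike in 3 injections of 12.5 µg per g body weight, starting at day 21. The MxCre labels contradict each other. Cells titled A2 are described as Arid1b +/+ or fl/fl, and cells titled A1b as Arid2 +/+ or fl/fl. The titles serve here as names, and no statement is made on the gene deleted there. Separate leukaemias are not stated for replicates, so each p-value reflects no more than the scatter of these libraries, which may be technical.

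Library totals ran from 12069153 to 38315410 counts. The identity genes of the leukaemia, Hoxa9, Meis1, Mpo, Ptprc and Itgam, had reads in every library. With VavCre, Arid1b ran from 186 to 367 CPM (the usual depth-normalised read count, on TMM-scaled library totals) in Arid1b +/+ and from 140 to 184 in Arid1b fl/fl cells. Arid2 ran from 218 to 443 CPM in Arid2 +/+ and from 197 to 290 in Arid2 fl/fl cells, which overlapped. A count over the whole gene need not show the loss of the floxed exons. Marker sums set 3 libraries apart, chosen with earlier results known and left out together in 1 alternative. One is VavCre Arid1b control 3, another the third floxed library titled A2, and the last the second floxed library titled A1b. The third floxed library titled A1b, which had by far the highest immediate-early sum, was not among them. By the Y-linked gene Kdm5d, the VavCre Arid1b set had male controls and female floxed cells and the MxCre set titled A2 female controls and male floxed cells, so sex and genotype cannot be told apart within either set.

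Each member joins an SH2 domain, which docks on phosphorylated receptors or kinases, to a SOCS box, which recruits elongins and a cullin ubiquitin ligase. Cytokines activate Janus kinases, these activate STAT factors, and STATs switch on some of the family, which then damps the same receptors. Cish and Socs2 are classical STAT5 targets in blood cells. Socs1 and Socs3 also block the kinase itself, Socs1 mainly below interferon receptors and Socs3 below gp130 and the G-CSF receptor. Socs4 to Socs7 are better known from growth factor receptor and insulin signalling.

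On GRCm38, in the GENCODE M21 annotation, Cish lies at chr9:107296026-107302784, Socs1 at chr16:10782240-10785536 and Socs2 at chr10:95385362-95417180. Socs3 lies at chr11:117966079-117970047, Socs4 at chr14:47276931-47296102, Socs5 at chr17:87107679-87137839 and Socs7 at chr11:97362551-97398542. All members are protein-coding genes. Exons of Cish overlap those of Gm17040 and Gm17041 on the opposite strand. The strand setting of the counting is not given, so reads of these genes and of Cish cannot be told apart. The other members share no exon with a neighbour.

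RefSeq promoter sequences on GRCm38 were held for 4 of the 8 members. The 250 bases before the start were searched on both strands for TTCNNNGAA, the form of site that STAT dimers bind, and for GAAA followed after any 2 bases by another GAAA, the form that interferon regulatory factors bind. The windows of Socs1 and Socs3 are shown because they held a match, on genes whose levels in the 8 groups differed by over 5-fold. The Socs1 window, chr16:10785537-10785786 on the minus strand, held 2 overlapping matches of the paired GAAA form, 83 and 77 bases before the start, in capitals. The Socs3 stretch, chr11:117969452-117969616 on the minus strand, lies inside the annotated span given above, because the promoter table places its start of Socs3 within the gene and not at its outer end. It is the part of that window outside annotated exons and held 1 match of TTCNNNGAA, 154 bases before the table's start, in capitals.
Socs1: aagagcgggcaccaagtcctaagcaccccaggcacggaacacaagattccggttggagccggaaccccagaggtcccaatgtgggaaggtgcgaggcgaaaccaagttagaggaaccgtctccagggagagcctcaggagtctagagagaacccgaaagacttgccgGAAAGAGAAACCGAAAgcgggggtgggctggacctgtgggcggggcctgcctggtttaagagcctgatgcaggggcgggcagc
Socs3: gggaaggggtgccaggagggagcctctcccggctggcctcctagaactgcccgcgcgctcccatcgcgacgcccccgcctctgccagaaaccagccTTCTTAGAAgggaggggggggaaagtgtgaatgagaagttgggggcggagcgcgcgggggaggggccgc
Of 32536 promoter windows of this length, 7.04% held at least 1 TTCNNNGAA, 2.98% at least 1 paired GAAA form and 0.175% at least 2. The windows of Cish and Socs4 held 0 matches of either form. All 250 bases of the Cish window lay in annotated exons, inside the span given above. The sequence before the outer start of Cish was therefore not searched. A match is a description of the letters and not a bound site.

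Per kb of exon, Socs7 was the most abundant member, with a mean of 7.28 CPM per kb over the 24 libraries, followed by Socs4 at 4.41 and Socs6 at 3.84. Socs5 (1.81) and Socs1 (1.69 CPM per kb) came next. Cish (0.898) and Socs3 (0.850) lay lower still, and Socs2, at 0.108 CPM per kb, was the scarcest. The length joins all annotated exons of a gene. For Cish these 6419 bases cover most of its span, so its value per kb may be too low. By plain CPM its mean of 5.76 lay above the 4.91 of Socs1. The scarce members spanned more between group means than the abundant ones, in part through the set titled A2. From the lowest to the highest group mean, Socs2 spanned 14.9-fold, Socs3 10.5-fold, Cish 7.03-fold and Socs1 5.34-fold. Both ends of the Cish span lie in the set titled A2, on which the family was chosen, so nothing is read from it. Outside that set the group means of Cish ran from 2.99 to 4.63 CPM. The highest means of Socs1 and Socs2 also lie in the floxed group titled A2. Socs5 spanned 3.06-fold, Socs7 1.94-fold, Socs6 1.74-fold and Socs4 1.26-fold.

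**Figure D1:**
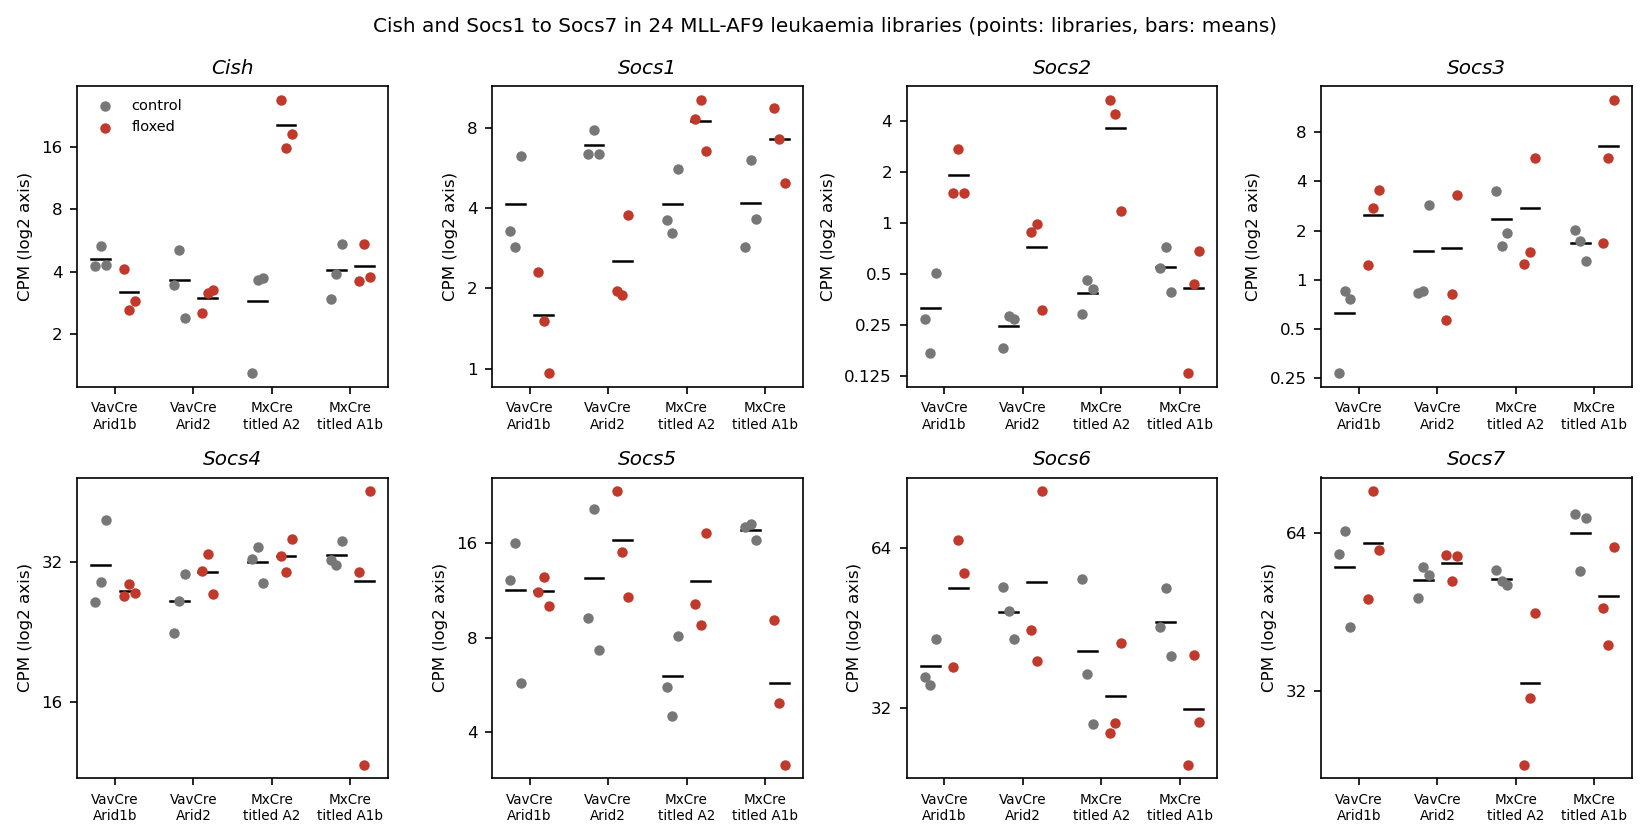
CPM (log2 axis) of each member in every library, by set, with controls in grey, floxed libraries in red and a bar at each mean of 3. Cish lies between 1.30 and 5.47 CPM in 21 libraries and between 15.7 and 26.9 in the 3 floxed libraries of the MxCre set titled A2.

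Cish was high in a single group. It stood, in the MxCre set titled A2, at 26.9, 15.7 and 18.4 CPM in the floxed libraries 1 to 3 and at 1.30, 3.64 and 3.74 CPM in the controls. The means, 20.4 ± 5.84 against 2.90 ± 1.38 CPM (SD, n = 3), differ 7.03-fold, with a log2 fold change of 2.81. Counts behind these values ran from 266 to 536 in the floxed and from 27 to 79 in the control libraries. In bulk RNA, fewer cells of a type and less RNA per cell cannot be told apart.

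The 7 other groups were close together for Cish. The controls of the VavCre Arid1b set stood at 4.25, 5.31 and 4.31 CPM and its floxed libraries, all lower, at 4.11, 2.61 and 2.88. The VavCre Arid2 set overlapped, with controls at 3.44, 5.07 and 2.41 and floxed libraries at 2.53, 3.18 and 3.27 CPM. The MxCre set titled A1b also overlapped, with controls at 2.95, 3.90 and 5.45 and floxed libraries at 3.63, 5.47 and 3.76 CPM. In the order of group means, the floxed group titled A2 did not overlap the next group, and no later neighbours were separate. By edgeR's quasi-likelihood test, the log2 fold change of Cish (± SE) was -0.53 ± 0.38 in the VavCre Arid1b set (adjusted p = 0.417). In the same test it was -0.28 ± 0.37 (adjusted p = 0.718) in the VavCre Arid2 set and 0.06 ± 0.38 (adjusted p = 0.946) in the MxCre set titled A1b. The 95% intervals of these changes reached at most 0.85, below the 2.81 of the set titled A2. The difference between sets was not tested for a gene chosen on it.

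Some marker sums also differed between the libraries of the set titled A2. The sum of the 10 T and NK cell markers, all with reads in all 6 libraries, was 10.9, 5.35 and 13.7 CPM in the controls and 15.4, 32.8 and 72.8 in the floxed libraries. Cish was highest in floxed 1, where this sum was lowest of the 3. The erythroid marker sum was 1171 CPM in floxed 3 and at most 11.5 in the other 5 libraries. In the 21 other libraries of the series the T and NK sum reached 22.2 CPM and Cish at most 5.47 CPM. The sum of the leukaemia identity genes was 3692 to 4004 CPM in the controls titled A2 and 4723 to 12880 in the floxed libraries, and the B cell sum 39.9 to 47.6 and 10.3 to 32.6. The part of these values in Cish was not tested. Without the 3 libraries that stand apart the log2 fold change of Cish was 2.89. With a term for Y-positive libraries it was 2.84. That term is estimated from other sets and cannot separate sex from genotype in this one. Over 14 alternatives the log2 fold change ran from 2.46 to 3.04.

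Socs2, the other classical STAT5 target of the family, was also highest there. It stood at 5.38, 4.42 and 1.18 CPM in the floxed libraries and at 0.289, 0.461 and 0.409 in the controls. The groups did not overlap and the log2 fold change was 3.23, but floxed 3 lay near the VavCre floxed values. Counts of Socs2 in these controls were 6, 10 and 7, so its low levels are imprecise. Cish was high in all 3 floxed libraries, while Socs2 was high in floxed 1 and 2 and intermediate in floxed 3.

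Socs1 and Socs5 lay above the controls and Socs7 below them in the same set. Socs1 stood at 8.69, 10.2 and 6.58 CPM against 3.62, 3.23 and 5.62 (log2 fold change 1.04). Socs5 stood at 10.2, 8.77 and 17.2 CPM against 5.595, 4.52 and 8.07 (0.99). Socs7 stood at 23.2, 31.1 and 45.1 CPM against 54.5, 52.0 and 50.9 (-0.67). In all, 4 of the 8 members lay wholly above and 1 wholly below the controls, where 7.18% and 7.78% of the 14099 tested genes did. The rule chose the family on this contrast, so nothing is read from that count. Socs3, Socs4 and Socs6 overlapped, at log2 fold changes of 0.22, 0.05 and -0.28, and each changed sign when 1 library was left out (Socs3 to -0.78 and Socs4 to -0.01 without floxed 3, Socs6 to 0.01 without control 1).

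Of the other STAT5 targets in that set, Pim1, a survival kinase, followed Socs2. Its floxed libraries stood, in the same order, at 250, 256 and 91.5 CPM, and its controls at 22.4, 37.2 and 27.7, a log2 fold change of 2.77. Ccnd1, cyclin D1, lay the other way, at 12.8, 5.23 and 13.3 against 83.0, 54.1 and 136 CPM (-3.13). The remaining 7 tested targets overlapped between the groups, among them Bcl2l1 (0.28), Osm (-0.03) and Ccnd2 (-0.66), and the median over the 9 was -0.03 beside 0.02 over all tested genes. None of the 4 Janus kinases was separate, and of the 7 STAT factors Stat4 was, lower at 9.11 ± 5.23 against 23.2 ± 11.1 CPM. Stat5a (74.7 ± 6.92 against 79.1 ± 8.35) and Stat5b (120 ± 58.7 against 143 ± 9.80 CPM) overlapped. The interferon response genes had 13 of 16 members above 0 and a median of 1.07, with 1 gene separate. Their summed level was 281, 531 and 1374 CPM in the floxed libraries and 511 to 798 CPM in the controls, so floxed 1 lay below every control and floxed 3 above. The immediate-early genes had 15 of 16 below 0 and a median of -0.82, with 3 separate. Of all 14099 tested genes, 7305 lay above 0 and 6793 below. Wholly above the controls lay 7.18% of them and wholly below 7.78%. The rule chose the family on this contrast, so nothing is read from the counts of these lists.

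**Figure D2:**
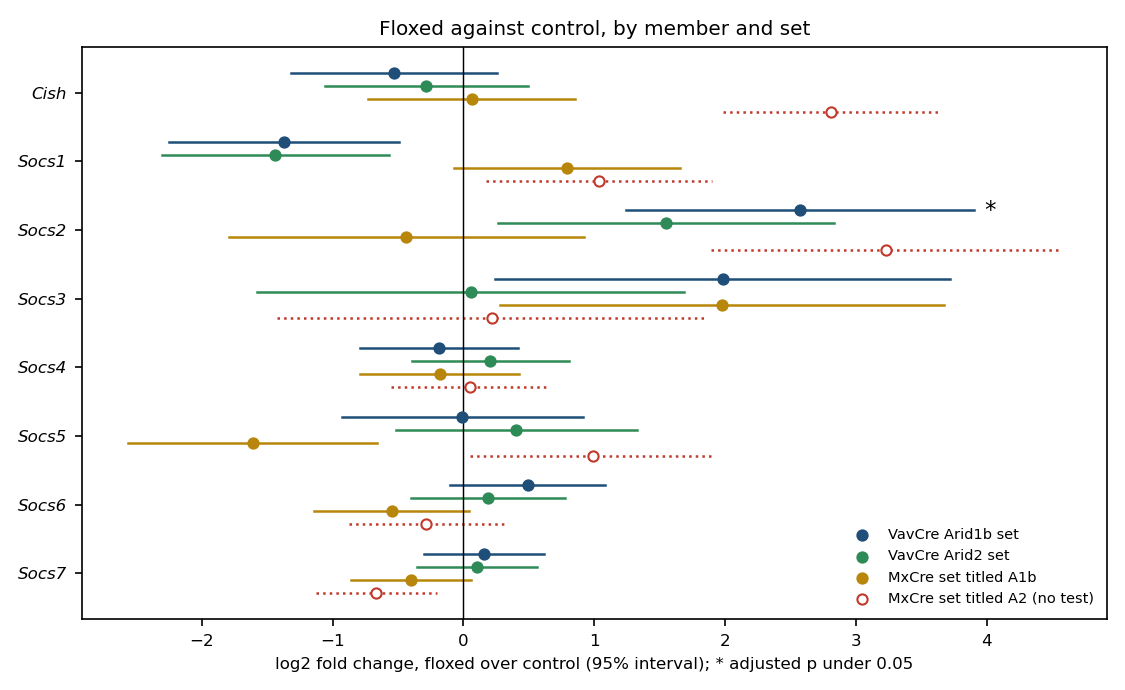
Log2 fold change of each member, floxed over control, with its 95% interval, in 4 sets. Filled points were tested and open points with dotted lines describe the MxCre set titled A2. The dotted intervals belong to the contrast on which the family was chosen, so nothing is read from whether they reach 0. One tested value carries an asterisk (adjusted p under 0.05), Socs2 in the VavCre Arid1b set at 2.58; Socs1 lies at -1.37 and -1.44 in the VavCre sets.

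Socs2 was the 1 member called in the VavCre Arid1b set, where 6.57% of tested genes were called and 3.52% were called higher. Its controls stood at 0.269, 0.171 and 0.507 CPM and its floxed libraries, numbered 1, 3 and 4, at 1.51, 2.75 and 1.501. The groups did not overlap, and the means of 0.316 ± 0.173 and 1.92 ± 0.715 CPM gave a log2 fold change of 2.58 ± 0.63 (adjusted p = 0.0241). The control counts were 5, 3 and 10. The call was lost without control 1 (adjusted p = 0.106), control 2 (0.0695) or floxed 3 (0.112). With a term for Y-positive libraries it was lost too (2.20, adjusted p = 0.205). That term is estimated from other sets, so it cannot separate sex from genotype here. The call held without the 3 libraries that stand apart, at 3.11 (adjusted p = 0.0155).

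In the VavCre Arid2 set Socs2 lay on the same side. Its controls stood at 0.183, 0.284 and 0.272 CPM and its floxed libraries at 0.886, 0.987 and 0.305, with floxed 3 just above the highest control. The log2 fold change of 1.55 ± 0.61 did not pass (adjusted p = 0.174). In this set 0 members were called, where 1.31% of tested genes were, 0.248% higher and 1.06% lower. At an unadjusted p under 0.05, Socs1 and Socs2 were below the line, beside 19.5% of all tested genes. DESeq2, which called many more genes in this set than the main fit, called 1 member, Socs1. Between both VavCre sets the effect on Socs2 differed by 1.02, with a 95% interval from -0.81 to 2.86 (adjusted p = 0.775). In that comparison 0 members were called, beside 0.0142% of genes, and 0 fell under an unadjusted p of 0.05, beside 9.85%. DESeq2 also called 0 members, and the share of all genes it called there was not counted.

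Socs1, the interferon feedback member, was lower in the floxed libraries of both VavCre sets by a similar amount, short of the threshold in each. In the VavCre Arid1b set its controls stood at 3.29, 2.86 and 6.29 CPM and its floxed libraries at 2.32, 1.51 and 0.961. No floxed library reached a control, and the log2 fold change was -1.37 ± 0.42 (adjusted p = 0.0551). In the VavCre Arid2 set the controls stood at 6.39, 7.87 and 6.42 CPM and the floxed libraries at 1.95, 1.89 and 3.78. Here too the groups were separate, with a log2 fold change of -1.44 ± 0.41 (adjusted p = 0.0826). Without control 3 of the VavCre Arid1b set, the library with the highest Socs1 there, the change was -0.91 (adjusted p = 0.270). In that set 2 members lay wholly above and 2 wholly below the controls, where 32.4% of tested genes were separate in either direction, and in the VavCre Arid2 set 1 and 1, where 36.1% were.

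The average of both VavCre effects was tested after these values of Socs1 and Socs2 had been seen. On that contrast Socs1 was lower, at -1.41 ± 0.30 (adjusted p = 0.0062), and Socs2 higher, at 2.06 ± 0.44 (adjusted p = 0.00658), where 16% of tested genes were called, 8.53% lower and 7.46% higher. The other 6 members were not called. Both kept their call without any 1 of the 12 libraries, and Socs1 ran from -1.60 to -1.17 and Socs2 from 1.89 to 2.34. The share of all genes called in those fits was not counted.

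Some marker sums of mature cells also differed between the groups of the VavCre sets. In the VavCre Arid1b set the 10 dendritic cell markers summed to 75.3 to 277 CPM in the controls and to 1229 to 3044 in the floxed libraries, and the 9 measured monocyte and macrophage markers to 567 to 1062 and to 1677 to 3317. Of the dendritic markers, Siglech was at 0 in control 1. In the VavCre Arid2 set the dendritic sum was 88.7 to 124 CPM in the controls and 223 to 1124 in the floxed libraries, and the 10 neutrophil markers summed to 4070 to 9464 and to 190 to 942. The neutrophil sum overlapped in the VavCre Arid1b set, at 607 to 1976 and 206 to 1754 CPM. In the VavCre Arid2 set the monocyte and macrophage sum overlapped, at 1410 to 1683 and 1223 to 2833 CPM. Its T and NK sum overlapped as well, at 4.75 to 12.1 and 2.88 to 17.2 CPM. Other sums were separate. In the VavCre Arid1b set the T and NK sum was 7.49 to 22.2 CPM in the controls and 3.94 to 5.23 in the floxed libraries, and the erythroid sum 2.10 to 4.72 and 9.36 to 37.5. Of the 11 measured erythroid markers, 6, 2 and 2 were at 0 in controls 1 to 3 and at most 1 in a floxed library. The B cell sum of the VavCre Arid2 set was 23.5 to 32.6 and 2.72 to 6.09, and that of eosinophils, basophils and mast cells 33.9 to 44.3 and 51.5 to 148. Up to 2 of the 8 measured B cell markers, and up to 5 of the 12 measured in the other list, were at 0 in a library. The interferon response genes summed to 524 to 879 CPM in the controls of VavCre Arid1b and, all higher, to 972 to 1054 in its floxed libraries, while Socs1 was lower there. Their sums overlapped in the VavCre Arid2 set, at 489 to 735 and 701 to 981 CPM. The part of these sums in the changes of Socs1 and Socs2 was not tested.

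In the MxCre set titled A1b, the log2 fold changes of Socs1 and Socs2 had the opposite sign to those of the VavCre sets. Neither difference passed in the main fit. Socs1 stood at 2.87, 6.07 and 3.63 CPM in the controls of this set. Its floxed libraries stood at 9.53, 7.29 and 4.96, which overlapped (0.79 ± 0.41, adjusted p = 0.326). Socs2 stood at 0.543, 0.724 and 0.389 CPM in the controls and at 0.130, 0.434 and 0.684 in the floxed libraries, from 2 to 13 counts each. The difference of its Socs1 effect from that of the VavCre Arid2 set was -2.23 (95% interval -3.45 to -1.01, adjusted p = 0.0591), and from that of the VavCre Arid1b set -2.16 (-3.39 to -0.93, adjusted p = 0.0765). For Socs2 these differences were 1.99 (adjusted p = 0.196) and 3.01 (adjusted p = 0.102). No member passed in these tests, in which 1.5% and 0.745% of genes were called. At an unadjusted p under 0.05, where 22.6% and 19.7% of genes fell, there were 3 members for the first set and 4 for the second. DESeq2 called 2 members in each. The share of all genes it called there was not counted, so nothing is read from them.

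Socs5 was the 1 member whose groups did not overlap in the MxCre set titled A1b. Its controls stood at 17.99, 18.4 and 16.3 CPM, the highest group of the series, and its floxed libraries at 9.08, 4.95 and 3.16, the lowest group. No floxed library reached a control, and the log2 fold change was -1.61 ± 0.45 (adjusted p = 0.125). In this set 0 of the 8 members were called, where 0.00709% of tested genes (1 gene) were. DESeq2, which called many more genes in this set than the main fit, called Socs5 alone of the members (adjusted p = 0.0249). At an unadjusted p under 0.05 in the main fit, Socs5 was joined by Socs3, beside 17.4% of genes. Among members, 1 of 8 was separate, where 14.1% of tested genes were. Leaving out floxed 1, the highest of its floxed libraries, gave -2.11 and a call (adjusted p = 0.0161). In that fit 1535 genes were called, against 1 with all libraries. In the VavCre sets Socs5 overlapped, at -0.01 and 0.40.

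Socs3, the brake on gp130 and G-CSF signalling, was the member that depended most on single libraries. With MxCre, titled A1b, it stood at 2.02, 1.73 and 1.30 CPM in the controls and at 1.69, 5.56 and 12.7 in the floxed libraries (1.98 ± 0.81, adjusted p = 0.220). The highest value of the series, in floxed 3, came with an immediate-early gene sum of 6401 CPM, where the other 23 libraries had at most 876. Without floxed 3 the change was 1.10 (adjusted p = 0.487). In floxed 2, the neutrophil marker sum was 21250 CPM. In the VavCre Arid1b set Socs3 stood at 0.269, 0.857 and 0.761 CPM in the controls and, all higher, at 1.23, 2.75 and 3.54 in the floxed libraries (1.98 ± 0.83, adjusted p = 0.153). The immediate-early sum there was 227 to 299 CPM in the controls and 448 to 724 in the floxed libraries. The VavCre Arid2 set held 1 high library in each arm, control 3 at 2.85 and floxed 3 at 3.33 CPM, with the other 4 between 0.573 and 0.851. Those 2 libraries also had the highest immediate-early sums of their arms, 617 and 544 CPM. The part of these genes in the levels of Socs3 was not tested.

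**Figure D3:**
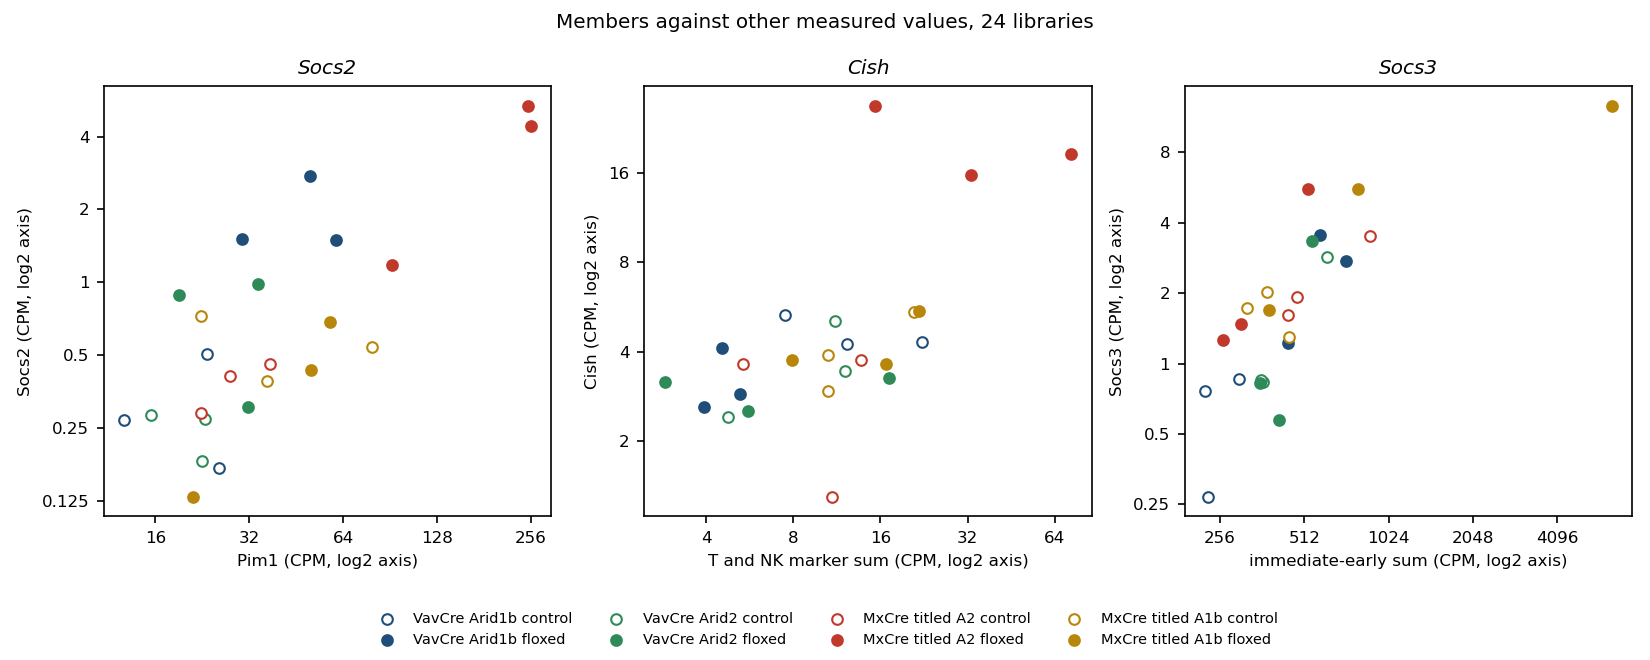
Socs2 against Pim1, Cish against the T and NK marker sum, and Socs3 against the immediate-early gene sum, each a CPM on a log2 axis, with 1 point per library (open: control, filled: floxed, colour: set). Pim1 and Socs2 are both highest in 2 floxed libraries titled A2, Cish is high in 3 libraries with T and NK sums of 15.4 to 72.8 CPM, and Socs3 is highest where the immediate-early sum reaches 6401.

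Socs4, Socs6 and Socs7 varied little. Socs4 ran from 22.5 to 45.3 CPM in 23 libraries and stood at 11.7 in the second floxed library titled A1b. In that library the rank correlation between gene length and level relative to the other libraries was -0.403, against -0.174 to 0.198 elsewhere. Socs4 was not called in any set, with log2 fold changes from -0.19 to 0.21. Socs6, which binds Kit and the insulin receptor, ran from 25.0 to 81.9 CPM around a median of 41.3, and Socs7 from 23.2 to 77.0 around 53.8. Titled A1b, their changes were -0.55 (adjusted p = 0.322) and -0.40 (adjusted p = 0.349), and in the VavCre sets between 0.10 and 0.49. Intervals of Socs7 in the VavCre sets ran from -0.35 to 0.61, so changes beyond about 1.5-fold lie outside them.

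Across the 6 groups outside the set titled A2, a joint test found differences in Socs1 (adjusted p = 0.0169) and Socs2 (adjusted p = 0.0216), where 9.4% of tested genes were called, and Socs3 fell short (adjusted p = 0.0715). Without floxed 3 of the VavCre Arid1b set it called 0 members. Adjusted for Y-positive libraries it called 1 of them, Socs1. The share of all genes called in these alternatives was not counted, so nothing is read from the counts of members. For Cish the joint test gave an adjusted p of 0.629. Controls titled A1b against both VavCre control groups gave 0 members (0.0213% of genes called, and 0 members beside 7.52% of genes at an unadjusted p under 0.05). DESeq2 called 0 members in this comparison of controls, and the share of all genes it called was not counted. The largest difference there was 0.98 for Socs2, with a 95% interval from -0.15 to 2.10.

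Of 30 tested cytokine receptors in the VavCre Arid1b set, 8 were called higher and 2 lower, where 6.57% of all tested genes were called, among them Lifr (6.15 ± 1.42, adjusted p = 0.0183), Il13ra1 (4.28, adjusted p = 0.0133) and Il6st, the gene of gp130, from 11.7 ± 7.84 to 221 ± 78.3 CPM (4.24, adjusted p = 0.0124). The list median was 0.28, against -0.06 over all tested genes. Kit, the receptor of stem cell factor, was lower (-1.94, adjusted p = 0.0274). None of the 4 Janus kinases or 7 STAT factors was called in a VavCre set or in the MxCre set titled A1b. On the average of both VavCre effects, Tyk2 was called higher (0.42, adjusted p = 0.0302), beside 16% of all tested genes. Of 9 tested STAT5 targets in the VavCre Arid1b set, Ccnd2 (4.70, adjusted p = 0.00664) and Ccnd1 (3.83, adjusted p = 0.0321) were called higher, and Pim1, at 20.6 ± 6.87 against 47.0 ± 15.5 CPM, was not (1.19, adjusted p = 0.134). Thus Ccnd1 lay higher where Socs2 was called higher in the VavCre Arid1b set, and lower beside a high Socs2 in the set titled A2. Of 5 tested STAT3 targets there, Bcl3 was called higher (1.53, adjusted p = 0.0294). Of 16 immediate-early genes, Klf6 (1.77, adjusted p = 0.0333) and Atf3 (3.44, adjusted p = 0.0473) were, and 15 lay above 0 with a median of 1.36. Of all 14099 tested genes, 6329 lay above 0 in this set.

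Other brakes on cytokine signalling gave 2 calls among 20 genes in the VavCre Arid1b set, beside the 6.57% of all genes, the phosphatase gene Ptpn6 higher (0.59, adjusted p = 0.0405) and Pias4 lower (-0.50, adjusted p = 0.0466). Among the 9 elongin and cullin partners, Rnf7, a RING subunit of cullin ligases, was lower (-0.67, adjusted p = 0.0464). Where 1.31% of genes were called, in the VavCre Arid2 set, 2 of 30 receptors were called lower, Il11ra1 (-1.61, adjusted p = 0.0422) and Il2rg (-1.71, adjusted p = 0.0473), and 0 genes of the kinase, STAT, brake, partner or STAT target lists. In the MxCre set titled A1b 0 genes of any list were called, with Rnf7 the other way (1.08, adjusted p = 0.0664). Its effect on Rnf7 differed from that of the VavCre Arid1b set by -1.74 (adjusted p = 0.0141) and from that of the VavCre Arid2 set by -1.55 (adjusted p = 0.0205), each as the VavCre minus the MxCre effect.

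**Figure D4:**
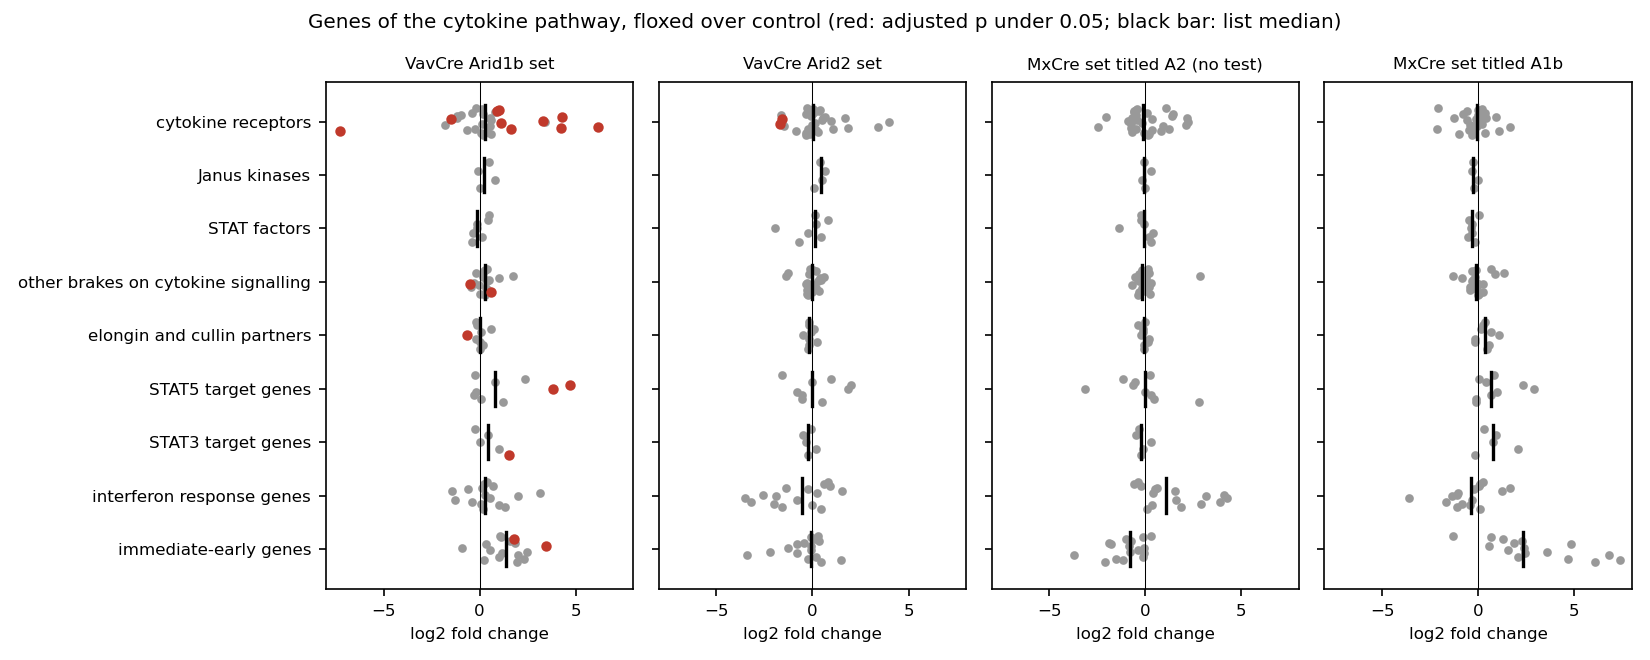
Log2 fold change, floxed over control, of each tested gene of 9 lists in 4 sets, with called genes in red and list medians as black bars; the MxCre set titled A2 has no test. Of 30 cytokine receptors in the VavCre Arid1b set 8 are called higher and 2 lower, and the Janus kinases and STAT factors hold none.

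The members did not vary as 1 group. Over the 24 libraries Pearson correlations of log2 CPM between members, which share libraries and groups, ran from -0.71 (Cish and Socs7) to 0.53 (Cish and Socs2). The value for Cish and Socs2 was -0.40 over the 18 libraries outside the set titled A2, and 0.05 for deviations from the group means. Socs1 and Socs2 went from -0.13 over 24 libraries to -0.72 over 18, but stood at -0.002 for deviations from the group means. Cish and Socs1 stayed at 0.51 and 0.42, and Socs3 and Socs5 at -0.49 and -0.62. For deviations from the group means, Cish and Socs1 stood at 0.23 and Socs3 and Socs5 at -0.40.

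**Figure D5:**
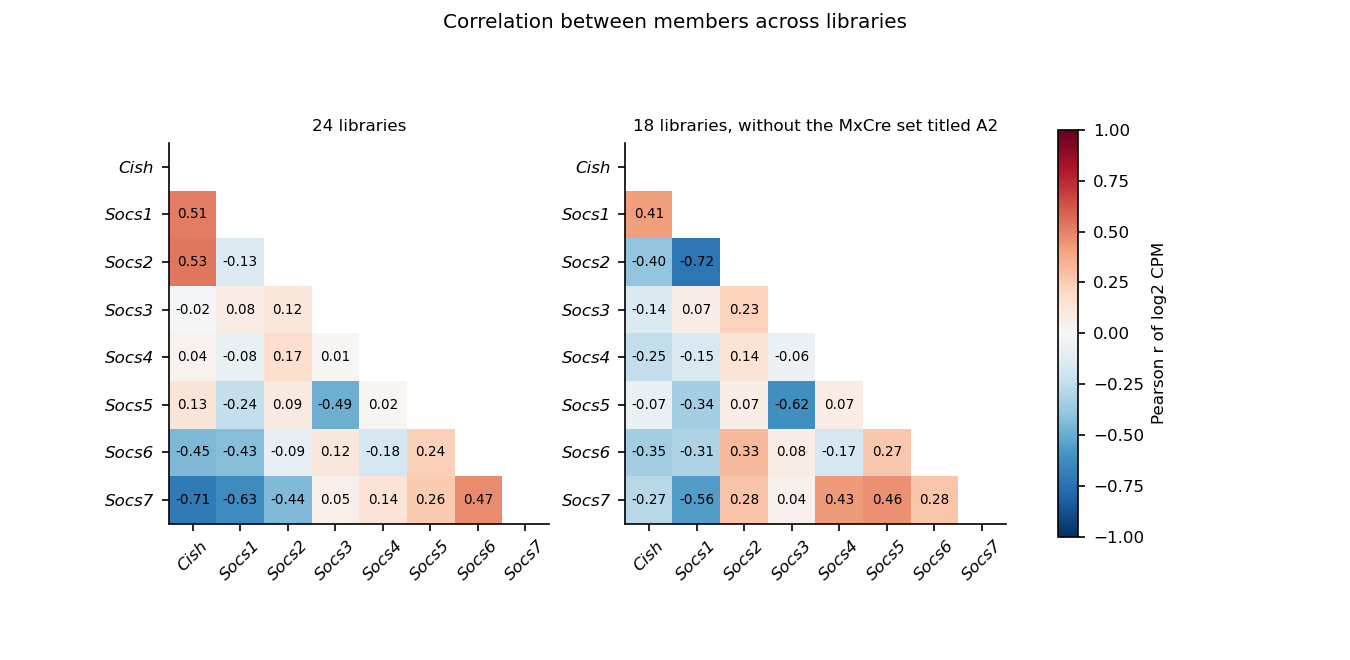
Pearson correlation of log2 CPM for each pair of members, over 24 libraries (left) and over the 18 outside the MxCre set titled A2 (right), from blue (-1) to red (1). Cish and Socs2 change from 0.53 to -0.40 and Socs1 and Socs2 from -0.13 to -0.72.

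By the same measure over 24 libraries, among 10978 genes with a mean of at least 2 CPM, the genes most like Cish were Ffar2 (0.75), Tlcd1 (0.73), Gimap6 (0.73), Atp5s (0.72) and Sun2 (0.70). Over the 18 libraries these were 0.58, 0.28, 0.34, 0.56 and 0.49. The 24 libraries include those on which the family was chosen, so nothing is read from this order. Ffar2, a receptor for short-chain fatty acids, stood at 31.8, 22.0 and 49.1 CPM in the floxed libraries titled A2 and at 2.56, 9.22 and 5.62 in their controls. Gimap6 stood at 6.73, 6.998 and 22.7 against 2.17, 1.66 and 2.40 CPM, highest in floxed 3. Socs2 was most like Pim1 (0.78 over 24 and 0.49 over 18 libraries). Rank correlation over 24 libraries put other genes first for both Cish and Socs2. Socs1 was most like Dennd2d (0.88), Dstn and Actn1 (both 0.87), and Socs3 like Sgk1 (0.85), Plbd1 and Il1b (both 0.82). Socs4 was most like Elk4 (0.94), Socs5 like Thap2 (0.88), Socs6 like Dse (0.90) and Socs7 like Fbxo28 (0.89).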

How the data were processed

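Whole-number counts per gene were deposited by the authors for all 24 libraries, made from polyA-selected RNA with a directional kit, per the labels' protocols. The submitters' processing notes name STAR and mm10. For counting, the tool, strand setting and gene models are not stated there. The members, the pathway and marker lists and the tests were chosen with earlier results of these data known. All 24 libraries entered 1 fit of edgeR 4.0.16 (quasi-likelihood test, TMM scaling, R 4.3.3), over the 14099 genes kept by a minimum count of 10, with Benjamini-Hochberg adjustment over all of them and a threshold of 0.05. The fit was tested on simulated data. CPM use TMM-scaled totals, and CPM per kb use GENCODE M21 exon lengths. Alternatives were DESeq2 1.42.0 and its size factors, other filters, each set alone, replicate numbers as a block, a term for Y-positive libraries, and libraries left out. The Y term is estimated from groups that held both sexes, which lie in the VavCre Arid2 set and the MxCre set titled A1b. The average of both VavCre effects was added after the values were seen. All members are named; of other lists, the JAK, STAT and STAT5 target genes and up to 3 called genes per list and comparison, and for likeness the highest Pearson correlations.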

Additional observations from a re-analysis of the deposited data

Results flagged for a closer look

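In 4 cases every floxed library of 1 set lay on one side of its controls and every floxed library of another set on the opposite side. All of them involve the MxCre set titled A2, on which the family was chosen, and none of the differences was tested. The share of all tested genes with such opposite sides was not counted, so nothing is read from the number of cases. Within single sets, separate genes in either direction made up 32.4% in the VavCre Arid1b, 36.1% in the VavCre Arid2 and 14.1% in the MxCre set titled A1b. For Cish the log2 fold change was -0.53 in the VavCre Arid1b set and 2.81 in the MxCre set titled A2. For Socs1 it was -1.37 in the VavCre Arid1b set and -1.44 in the VavCre Arid2 set, against 1.04 in the MxCre set titled A2. For Socs5 it was 0.99 in the MxCre set titled A2 and -1.61 in the MxCre set titled A1b.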

How the results depend on the processing

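Genes called in the VavCre Arid1b set numbered 1815 by DESeq2, 1 with the replicate number as a block, 101 with a term for Y-positive libraries and 62 to 734 with 1 library left out, against 926. In the VavCre Arid2 set, against 185, they numbered 1095 by DESeq2, 103 with no filter, 1030 with its own 6 libraries, 3 with the block, 104 with the Y term, 1144 without the 3 libraries that stand apart and 15 to 227 with 1 left out. In the MxCre set titled A1b, against 1, they numbered 478 by DESeq2, 0 with no filter, 3 at a mean of 2 CPM or more, 0 with its own 6 libraries, 2 with the Y term, 8 without the 3 libraries and 0 to 1535 with 1 left out (1535 without floxed 1).

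Members called in the VavCre Arid1b set, 1 as reported, were 2 by DESeq2, 0 at 2 CPM or more (Socs2 was then not tested), 0 with the block, 0 with the Y term and 0 to 2 with 1 library left out. In the VavCre Arid2 set they were 1 by DESeq2 and 1 without the 3 libraries (Socs1, -1.42, adjusted p = 0.0408), and 0 with any 1 left out. In the MxCre set titled A1b they were 1 by DESeq2 and 0 to 1 with 1 left out. The difference between the VavCre Arid1b set and the MxCre set titled A1b gave 2 by DESeq2 and 0 to 1 with 1 left out, and that of the VavCre Arid2 set gave 2, 1 without the 3 libraries, and 0 to 1. The average of both VavCre effects gave 1 at 2 CPM or more, 0 with the block (Socs1 adjusted p = 0.0777, Socs2 0.0795) and 2 with any 1 left out. The joint test gave 1 at 2 CPM or more, 1 with the Y term and 0 to 3 with 1 left out. For the differences, the average and the joint test, the share of all genes called under each alternative was not counted. Nothing is read from the counts of members there. The cause of the changes between alternatives was not tested.

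In the MxCre set titled A2, Socs3 (0.22) was -0.0326 with the block, -0.78 without the 3 libraries and -0.78 to 0.62 with 1 left out. Socs4 (0.05) was -0.0843 with the Y term, -0.00672 without the 3 libraries and -0.0205 to 0.11 with 1 left out. Socs6 (-0.28) was 0.23 with the Y term and -0.48 to 0.0101 with 1 left out.

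Libraries with the same replicate number deviated together with correlations from -0.217 to 0.259, so the numbers were not taken as pairs. The block was not run for the joint test and the comparison of controls, where it cannot be estimated, and own libraries only within sets. Counts of 2 to 13 in many libraries limit the precision of Socs2.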
